A study of Mus musculus with 2 samples.

Results

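Expression of 9 genes linked to alternative activation and tissue residence of macrophages (*Arg1*, *Chil3*, *Retnla*, *Mrc1*, *Cd163*, *Folr2*, *Cd209f*, *Cd209g* and *Fcrls*) was analysed in single-cell RNA-seq of mouse dorsal skin. All 9 symbols occurred once among the 33904 genes of both count matrices. The genes were chosen by name with their levels in these libraries already known, so their levels and the differences between the libraries are given as a description. The Ctrl library came from skin treated topically with ethanol. The AD library came from skin treated daily with MC903 (calcipotriol, a vitamin D analogue) at 4.5 nmol per application, a model of atopic dermatitis. In both groups the skin was depilated on an area of 2 cm by 2 cm and collected on day 10. Both used female C57BL/6J mice, 7 weeks old, and the number of mice behind a library was not given. Each group had 1 library, so differences between the libraries could not be tested. The 95% intervals below are exact Poisson for levels, exact Clopper-Pearson for shares and exact conditional binomial for ratios. They cover counting error only, and leave out variation between mice and the uneven spread of UMIs over cells.

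Macrophages of the skin carry receptors for debris, haemoglobin, sugars and folate, and take on a different gene program when T cells, basophils or innate lymphoid cells release IL-4 and IL-13. Those cytokines act through the IL-4 receptor and the transcription factor STAT6, and *Arg1*, *Chil3*, *Retnla* and *Mrc1* are its textbook readouts in the mouse, called alternative activation. *Cd163*, *Folr2*, the *Cd209* lectins and *Fcrls* are known instead as markers of macrophages that live in the tissue, many of them beside vessels.

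The letters before the start sites are shown for 3 of the genes, because *Retnla* and *Chil3* share a textbook regulator and yet lay on opposite sides of the comparison below, and *Cd209f* moved together with its neighbour *Cd209g*. Sequences are from RefSeq promoter windows of GRCm38.p6 (250 bases before to 50 after a start), which held 8 of the 9 genes in 9 windows, cut off before the first exon that GENCODE M21 annotates there and written 5′ to 3′ on the strand of the gene. Capitals mark the fixed letters of a motif.

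Retnla, chr16:48842359-48842550, plus strand: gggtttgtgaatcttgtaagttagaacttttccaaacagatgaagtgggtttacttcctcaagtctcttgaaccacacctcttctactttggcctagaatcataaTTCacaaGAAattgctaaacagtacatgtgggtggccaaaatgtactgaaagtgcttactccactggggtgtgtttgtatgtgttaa

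Chil3, chr3:106167565-106167814, minus strand: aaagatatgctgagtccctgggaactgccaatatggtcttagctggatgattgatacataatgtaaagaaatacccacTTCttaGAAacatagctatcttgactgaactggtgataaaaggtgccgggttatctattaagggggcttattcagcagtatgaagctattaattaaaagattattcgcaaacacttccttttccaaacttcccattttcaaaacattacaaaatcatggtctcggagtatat

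Cd209f, chr8:4105836-4106014, minus strand: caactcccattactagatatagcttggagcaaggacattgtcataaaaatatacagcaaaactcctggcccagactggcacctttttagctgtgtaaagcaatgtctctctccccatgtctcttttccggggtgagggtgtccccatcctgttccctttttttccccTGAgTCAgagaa

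All motifs were searched on both strands. TTC and GAA with 4 bases between them, the spacing that STAT6 prefers, lay 145 bases before the *Retnla* start as TTCACAAGAA. It occurred in 1 of the 9 windows of these genes and in 6.95% of all 32851 windows. The shorter STAT pattern, with 3 bases between TTC and GAA, lay 172 bases before the *Chil3* start as TTCTTAGAA, also in 1 of the 9 windows, and in 8.30% of all windows. TGANTCA, the core read by AP-1 factors, occurred in 3 of the 9 windows and in 7.81% of all windows. It was TGAGTCA in both *Cd209f* and *Cd209g*, 83 and 97 bases before the start, and the 250 bases before the *Cd209f* start matched the *Cd209g* window with 43 differences (82.8% identity). These are matches of letters, and no binding was measured.

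After filtering, 11399 of 12598 barcodes were kept in Ctrl (median 7813 UMIs, distinct transcript molecules) and 8179 of 8778 in AD (median 6330 UMIs). The libraries shared 35 barcodes, and 2 Ctrl macrophages and 0 AD macrophages carried one. A cell was called a macrophage when *C1qa*, *C1qb* and *C1qc*, the chains of complement C1q, together had at least 3 UMIs, which gave 432 cells in Ctrl (3.79% of cells, median 4240.5 UMIs) and 181 in AD (2.21%, median 6454 UMIs). Just inside this limit, at 3 UMIs, lay 26 and 8 cells, and just outside it, at 2 UMIs, lay 42 and 24. The cells carried the macrophage genes *Cd68* (309 CPM in Ctrl and 354 CPM in AD), *Csf1r* (771 and 493 CPM), *Adgre1* (325 and 142 CPM) and *Ms4a7* (390 and 555 CPM), while the T cell gene *Cd3e* stayed at 2.24 and 2.01 CPM, where CPM is the UMIs of a gene for every 1000000 UMIs of those cells. *Col1a1* of fibroblasts and *Krt5* of keratinocytes were higher in these cells in Ctrl, at 1520 CPM against 158 CPM and 121 CPM against 6.04 CPM. *Col1a1* was also higher in Ctrl in the fibroblasts themselves, at 12168 CPM against 792 CPM. Its gap in macrophages therefore does not measure how much fibroblast RNA they carried. The gate of another cell type was also passed by 86 Ctrl and 36 AD macrophages. Among these gates were fibroblast (36 and 12 cells), dendritic (32 and 8), keratinocyte (17 and 2) and Langerhans (3 and 10). With the cells that passed another gate left out, 2 of the 9 genes were at least 2-fold higher in AD and 5 at least 2-fold lower. The share of all genes past 2-fold was not computed for those cells. The part of fibroblast and keratinocyte RNA in the levels was not tested.

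*Arg1* (chr10:24915221-24927484, GRCm38, minus strand), which encodes the arginase that turns arginine into ornithine and urea, had 1 UMI in 1 of 432 Ctrl macrophages and 294 UMIs in 9 of 181 AD macrophages. Its Ctrl level was 0.447 CPM (0.0113 to 2.49), against 197 CPM (176 to 221) for AD. With 1 UMI in Ctrl the ratio was wide, a log2 ratio of 8.79 with a counting interval from 6.30 to 14.1. *Chil3* (chr3:106147554-106167564, minus strand), a secreted chitinase-like protein also known as Ym1, had 8 UMIs in 2 Ctrl macrophages and 335 UMIs in 20 AD macrophages. This corresponded to 3.58 CPM (1.54 to 7.05) and 225 CPM (202 to 250), 62.9-fold higher in AD (log2 ratio 5.98, from 4.98 to 7.20). With 1 CPM added to both levels the log2 ratios were 7.10 for *Arg1* and 5.63 for *Chil3*, and they changed to 4.56 for *Arg1* when cells with 1 or 2 C1q UMIs were taken in, and to 4.16 for *Chil3* when 10 C1q UMIs were asked for.

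*Retnla* (chr16:48842551-48844461, plus strand) encodes RELMα, a small secreted protein, and went the other way. It had 8400 UMIs in 184 Ctrl macrophages and 127 UMIs in 13 AD macrophages, or 3755 CPM (3675 to 3837) and 85.3 CPM (71.1 to 101). The AD level was 44.0-fold lower, a log2 ratio of -5.46 (from -5.72 to -5.21). With 1 CPM added it was -5.44, and it lay between -6.82 (gate on *Cd68*, *Csf1r* and *Adgre1*) and -4.07 (mean of the cells' own CPM). The enzyme *Arg1* and the secreted *Chil3* were thus higher in the AD library, and the secreted *Retnla* was higher in the Ctrl library.

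Among the surface receptors, *Mrc1* (chr2:14229392-14332057, plus strand), the mannose receptor CD206, was found in most macrophages of both libraries, with 4229 UMIs in 398 Ctrl cells and 2244 UMIs in 153 AD cells. Its level of 1891 CPM in Ctrl and 1507 CPM in AD gave a log2 ratio of -0.33 (from -0.40 to -0.25), within 2-fold, and 0.084 when every cell with 1 or more C1q UMIs was taken as a macrophage. *Cd163* (chr6:124304656-124330527, plus strand), the scavenger receptor for haemoglobin bound to haptoglobin, had 1469 UMIs in 208 Ctrl cells and 612 UMIs in 54 AD cells. The levels of 657 and 411 CPM gave a log2 ratio of -0.68 (from -0.81 to -0.54). *Folr2* (chr7:101839988-101857194, minus strand), the folate receptor beta, had 1535 UMIs in 280 Ctrl cells and 124 UMIs in 48 AD cells. It stood at 686 CPM and 83.3 CPM, 8.24-fold lower in AD (log2 ratio -3.04, from -3.32 to -2.78).

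The largest drops after *Retnla* were those of the C-type lectins *Cd209f* and *Cd209g*, relatives of human DC-SIGN, and of *Fcrls*, an Fc receptor-like scavenger receptor used as a marker of resident macrophages and microglia. *Cd209f* (chr8:4102787-4105835, minus strand) had 979 UMIs in 159 Ctrl cells and 17 UMIs in 9 AD cells, or 438 and 11.4 CPM (log2 ratio -5.26, from -6.05 to -4.57). *Cd209g* (chr8:4134098-4137707, plus strand) had 547 UMIs in 131 Ctrl cells and 11 UMIs in 6 AD cells, or 245 and 7.39 CPM (log2 ratio -5.05, from -6.06 to -4.20). *Fcrls* (chr3:87250758-87263738, minus strand) had 462 UMIs in 223 Ctrl cells and 13 UMIs in 9 AD cells, or 207 and 8.73 CPM (log2 ratio -4.56, from -5.48 to -3.78). The last 300 bases of the longest *Cd209f* transcript matched that of *Cd209g* at 81.3%, and 42.6% of its stretches of 30 bases also occurred in *Cd209g*. Reads from shared stretches may fit both genes, and the effect on the counts of the pair was not tested. The same comparison gave 89.3% and 32.3% for *Chil3* against *Chil4*, which had 0 UMIs in macrophages of both libraries.

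**Figure D1:**
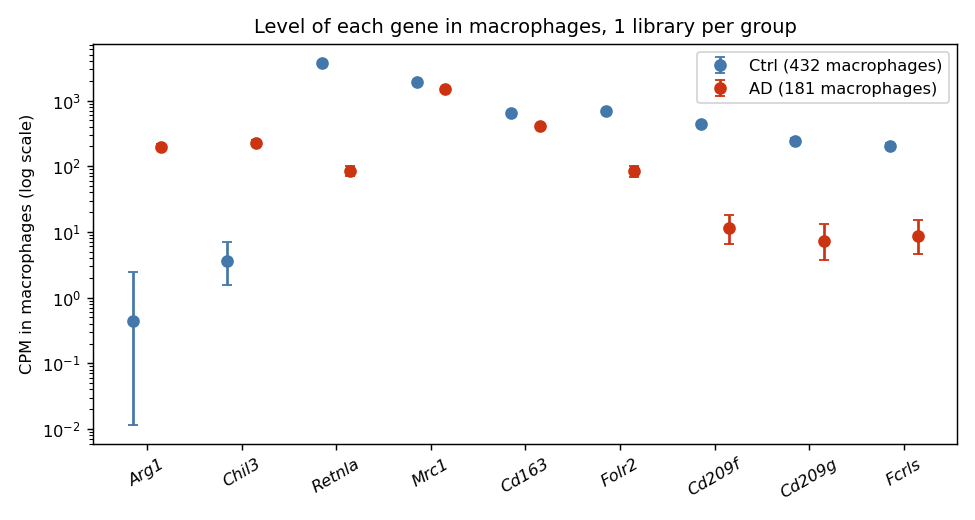
CPM of each gene in macrophages on a log axis (y) by gene (x), 1 point per library (432 Ctrl and 181 AD macrophages) with exact 95% Poisson intervals. *Arg1* and *Chil3* lie higher in AD, *Mrc1* and *Cd163* lie within 2-fold, and the other 5 genes lie lower in AD.

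With 1 CPM added to both levels, 2 of the 9 genes were at least 2-fold higher in AD macrophages and 5 were at least 2-fold lower. Of the 3776 genes that reached 50 CPM in one library or both, 6.86% were at least 2-fold higher and 10.0% at least 2-fold lower, and since the genes were chosen with this comparison known, nothing is read from their count. All 9 passed the level of 50 CPM, *Arg1* and *Chil3* only through AD and *Cd209f*, *Cd209g* and *Fcrls* only through Ctrl. The median log2 ratio of all genes tested was -0.06.

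The shares of macrophages with a UMI moved in the same directions as the levels. For *Retnla* the share was 42.6% in Ctrl (37.9% to 47.4%) and 7.18% in AD (3.88% to 12.0%), for *Folr2* 64.8% and 26.5%, for *Cd209f* 36.8% and 4.97%, for *Cd209g* 30.3% and 3.31%, and for *Fcrls* 51.6% and 4.97%. *Mrc1* was found in 92.1% and 84.5% of macrophages and *Cd163* in 48.1% and 29.8%. *Chil3* was found in 0.463% (0.0561% to 1.66%) and 11.0% (6.88% to 16.5%), and *Arg1* in 0.231% (0.00586% to 1.28%) and 4.97% (2.30% to 9.23%).

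Because AD macrophages were deeper, each cell was also thinned to 1000 UMIs, which left out 17 Ctrl and 10 AD macrophages as too shallow. The thinned shares were 35.7% and 4.68% for *Retnla*, 41.2% and 8.77% for *Folr2*, 17.1% and 0% (0 of 171 cells) for *Fcrls*, 0.241% and 4.68% for *Arg1*, and 0% (0 of 415 cells) and 8.77% for *Chil3*. Thinned *Mrc1* was found in 73.7% and 64.9% of cells and thinned *Cd163* in 34.2% and 19.3%. T cells, which should lack these transcripts, gave the background. In Ctrl, 5.62% of 569 T cells (median 3195 UMIs) had a *Retnla* UMI, 1.41% an *Mrc1* UMI and at most 0.703% a UMI of any of the other 7 genes. In AD, 1.77% of 339 T cells (median 5616 UMIs) had an *Mrc1* UMI, 0.590% a *Chil3* UMI, and 0 had an *Arg1*, *Retnla*, *Cd209f* or *Cd209g* UMI. Every unthinned macrophage share lay over the T cell share of its own library and gene, and the Ctrl shares of *Arg1* and *Chil3* rested on 1 and 2 cells.

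**Figure D2:**
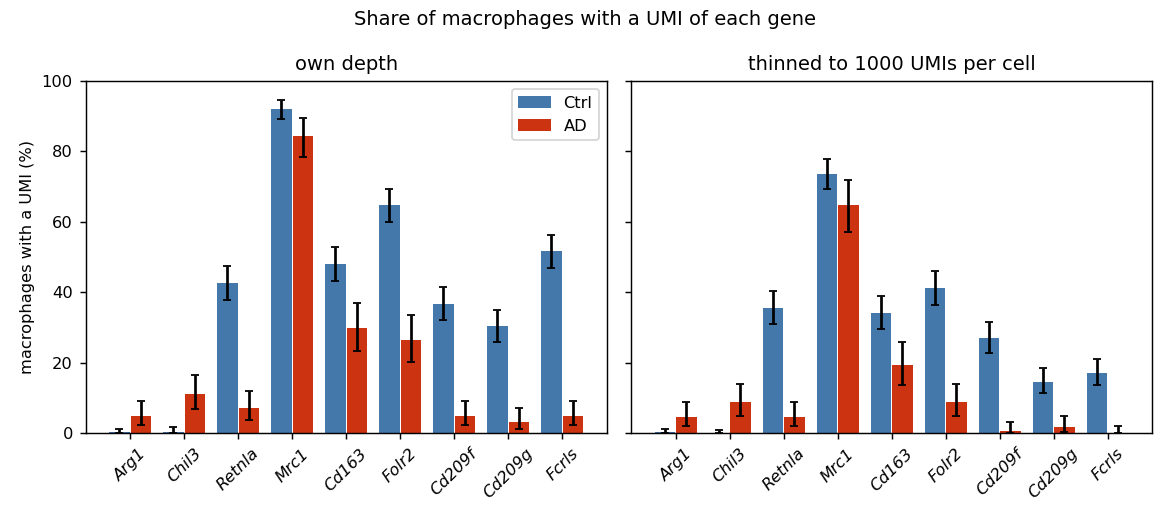
Percent of macrophages with at least 1 UMI of each gene (y) by gene (x), at the cells' own depth (left) and after thinning every cell to 1000 UMIs (right). Bars are 1 library each with exact 95% Clopper-Pearson intervals, and the direction between Ctrl and AD is the same in both panels for all 9 genes.

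The genes were carried very unevenly by single cells. In AD, 1 macrophage held 150 of the 294 *Arg1* UMIs (51.0%) and 5 cells held 97.6% of them. Without the first cell the *Arg1* level was 98.1 CPM, below the counting interval given above. For *Chil3* the highest cell held 113 UMIs (33.7%) and 5 cells held 85.4%, and the level was 150 CPM without the first. The 127 *Retnla* UMIs of AD were 83.5% in 5 cells, with at most 37 in a cell, and the mean of the cells' own CPM was 295 instead of 85.3 CPM. In Ctrl, *Retnla* also varied widely, from 0 UMIs in most macrophages to 433 UMIs in 1 cell, and 110 cells with at least 10 UMIs (25.5% of macrophages) held 96.7% of its UMIs. *Mrc1* was spread most evenly, with a median of 9 UMIs in the Ctrl cells and 8 UMIs in the AD cells that had any, and its highest cell held 1.28% and 3.79% of the UMIs. *Cd209f* and *Cd209g* of AD reached at most 7 and 4 UMIs in a cell, against 48 and 21 in Ctrl. Without the highest cell, the AD levels were 6.75 CPM for *Cd209f*, 4.73 CPM for *Cd209g* and 5.42 CPM for *Fcrls*, and the Ctrl level of *Chil3*, 7 of whose 8 UMIs lay in 1 cell, was 0.450 CPM.

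The other gates of the skin, each a sum of at least 3 UMIs over a marker list, were then compared for the same genes. In the AD library *Chil3* lay largely outside the macrophages: of its 2190 UMIs, 59.2% lay in myeloid cells that passed no other gate, 15.3% in macrophages and 13.2% in neutrophils (cells with *Csf3r*, *Cxcr2* or *Retnlg*). The level was 1735 CPM in the 114 other myeloid cells of AD and 59.9 CPM in the 162 of Ctrl (28.9-fold, log2 ratio 4.86, from 4.44 to 5.30). In the 42 AD neutrophils it was 1972 CPM, with a UMI in 83.3% of cells, while the Ctrl library had 4 neutrophils and 0 *Chil3* UMIs in them. The neutrophil granule genes *S100a8* and *S100a9* summed to 826 CPM in the other myeloid cells of AD and to 238 CPM in those of Ctrl, against 122276 CPM in AD neutrophils. In the 30 other myeloid cells of AD with *Chil3* they summed to 2397 CPM, found in 13 cells, and their part in the *Chil3* level was not tested. In AD macrophages the same sum was 20.8 CPM, *Csf3r*, *Cxcr2* and *Retnlg* summed to 12.1 CPM, and *Retnlg* had 0 UMIs.

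*Arg1* outside the macrophages was 2.50 CPM (2 UMIs) in other myeloid cells of Ctrl and 77.6 CPM (58 UMIs in 4 cells) in those of AD. In keratinocytes it was 2.04 CPM in Ctrl (48 UMIs in 19 of 1683 cells) and 2.17 CPM in AD (10 UMIs in 6 of 342 cells). Of the 154 *Arg1* UMIs of the Ctrl library 0.649% were in macrophages, and of the 382 of the AD library 77.0% were.

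*Retnla* was lower in AD in every gate with at least 50 cells in both libraries and at least 20 UMIs. Other myeloid cells had 403 CPM in Ctrl and 45.5 CPM in AD (log2 ratio -3.15, from -3.70 to -2.64), and dendritic cells had 78.1 CPM (113 UMIs) and 0 UMIs, for which the counting interval put the log2 ratio at -3.97 or below. The dendritic gate held 194 Ctrl and 51 AD cells. Its markers included *Cd209a*, itself lower in AD macrophages (109 and 4.03 CPM), so the cells it took in may differ between the libraries. Fibroblasts had 9.71 and 0.233 CPM, which was 0.259% and 0.273% of the macrophage level of their library, and T cells had 17.0 CPM (0.453% of that level) and 0 UMIs. Whether these UMIs were free RNA was not tested. For *Folr2*, *Cd209f* and *Cd209g*, at least 93.5% of the Ctrl UMIs were in macrophages.

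*Mrc1* was also present in lymphatic endothelium, where it is a known marker. It was found in 25.0% of 312 lymphatic endothelial cells of Ctrl at 89.5 CPM and in 13.3% of 316 of AD at 27.4 CPM (log2 ratio -1.71, from -2.14 to -1.29), which was 4.73% and 1.82% of the macrophage level, against 0.214% and 0.274% for the sum of *Ms4a7*, *Aif1*, *Csf1r* and *Adgre1*, 4 macrophage genes. In dendritic cells *Mrc1* was 328 CPM and 105 CPM (log2 ratio -1.64, from -2.0 to -1.29). This was 17.3% and 6.99% of the macrophage level, below the 22.4% and 10.1% of the same 4 macrophage genes. *Cd163* and *Fcrls* of dendritic cells were 137 and 58.8 CPM in Ctrl and 10.7 and 4.0 CPM in AD. As parts of the macrophage level these were 20.8% and 28.5% in Ctrl and 2.60% and 45.8% in AD. Whether RNA of macrophages made up these levels, or the cells taken in by the dendritic gate changed them, was not tested. In other myeloid cells *Mrc1* was 191 CPM and 217 CPM (log2 ratio 0.18, from -0.14 to 0.51), an interval that includes 0.

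**Figure D3:**
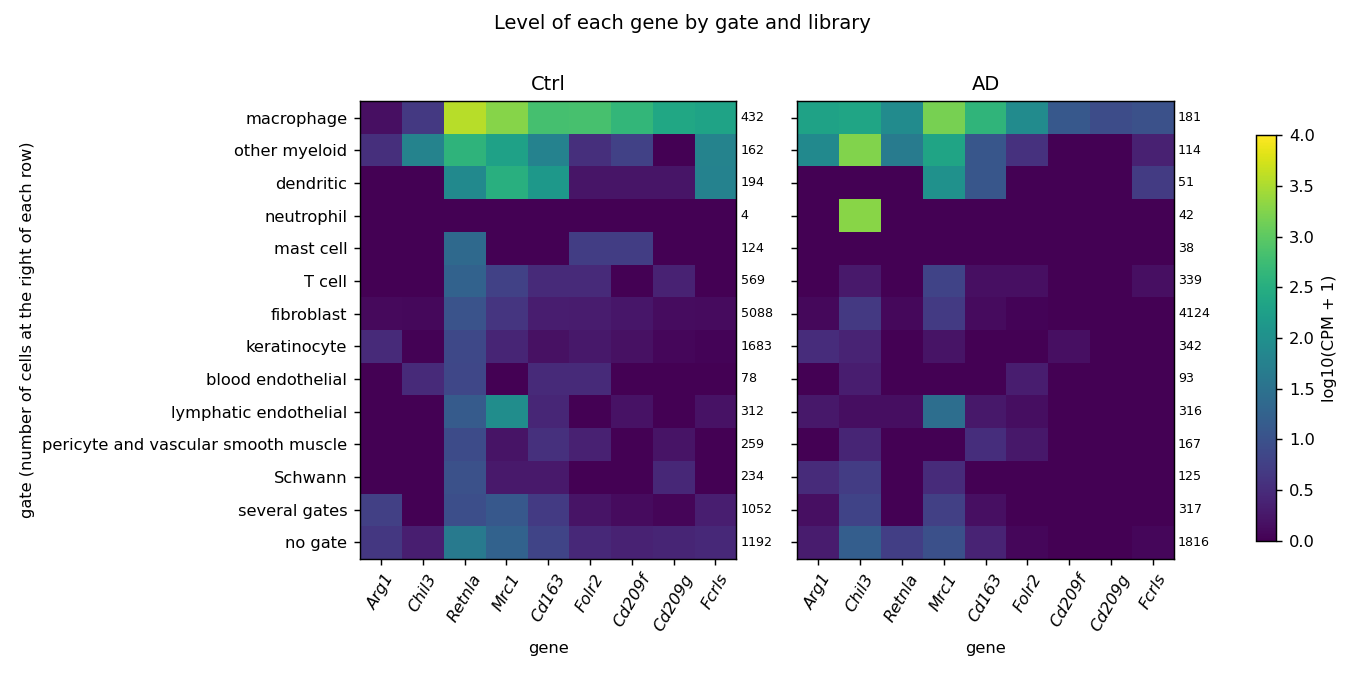
Level of each gene (x) as log10(CPM + 1), by gate (y) and library (panels), with the number of cells at the right of each row; Langerhans cells, basophils and adipocytes are not drawn. *Chil3* stands at 1735 CPM in other myeloid cells and 1972 CPM in neutrophils of AD, and *Mrc1* is seen in lymphatic endothelial cells of both libraries.

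Detection of *Arg1* or *Chil3* and of *Retnla* or *Cd209f* did not coincide in any macrophage of either library. In AD, 24 of 181 macrophages had *Arg1* or *Chil3*, 20 had *Retnla* or *Cd209f*, 137 had neither and 0 had both, which allows a share of up to 1.66% (3 cells). The product of the shares gave 2.65 cells with both, which is under the 3 cells that a count of 0 allows, so that a gap was not detectable at this number of cells. In Ctrl, 3 of 432 macrophages had *Arg1* or *Chil3* and 238 had *Retnla* or *Cd209f*, with 0 cells with both and 1.65 expected. After thinning to 1000 UMIs, 18 and 9 of 171 AD macrophages had either pair and 0 had both, with 0.947 expected. The cells with *Arg1* or *Chil3* were deeper (median 8425.5 UMIs) than those with *Retnla* or *Cd209f* (median 3890 UMIs) in AD.

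**Figure D4:**
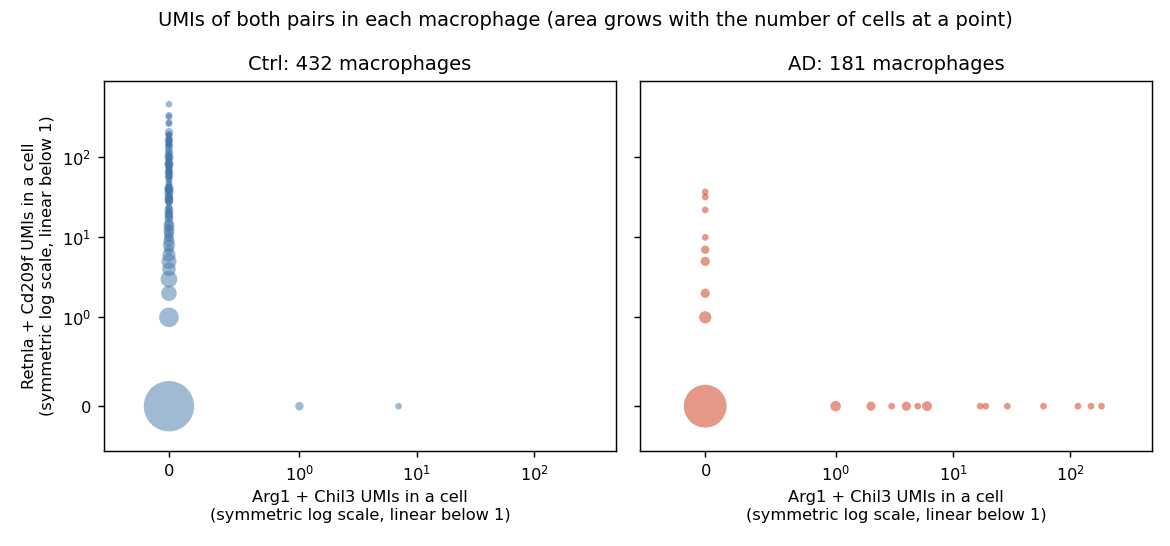
UMIs of *Arg1* plus *Chil3* (x) and of *Retnla* plus *Cd209f* (y) in each macrophage, on symmetric log axes that are linear below 1, for Ctrl (432 cells, left) and AD (181 cells, right). Point area grows with the number of cells at a position, and all cells lie on one of the axes, with 0 cells off both.

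Within the pairs, detection coincided. Of the 9 AD macrophages with *Arg1*, 5 also had *Chil3* (55.6%), against 8.72% of the other macrophages, and the thinned values were 62.5% and 6.13%. In Ctrl, *Retnla* cells had *Cd209f* in 57.1% of cases and the remaining macrophages in 21.8%, with thinned values of 48.0% and 15.4%. *Cd209g* was found in 71.7% of the Ctrl macrophages with *Cd209f* and in 6.23% of those without it (thinned, 36.6% and 6.60%), with the shared sequence named above. *Fcrls* was found at similar rates in Ctrl macrophages with *Retnla* (49.5%) and without it (53.2%), and *Mrc1* likewise (92.4% and 91.9%). In AD, *Mrc1* was found in 87.5% of cells with *Arg1* or *Chil3* and in 90.0% of cells with *Retnla* or *Cd209f*, and *Folr2* in 16.7% and 55.0%. These are counts of cells from 1 library each, given without a test.

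The AD macrophages of the *Arg1* or *Chil3* class and of the *Retnla* or *Cd209f* class were also described by other genes. C1q chains summed to 2449 CPM in the 24 cells of the former and 9226 CPM in the 20 cells of the latter. The genes leading the former class among 2018 genes that reached 100 CPM in one class or both were *Ptgs2* (the inducible cyclooxygenase COX-2; 3087 CPM, 629 UMIs), *Spp1* (osteopontin; 491 CPM), *Acod1* (the itaconate-making enzyme; 363 CPM), *Cxcl16* (294 CPM) and *Cxcl3* (280 CPM), each with 0 UMIs in the latter class. The latter class was led by *Fcna* (ficolin A; 818 CPM, 95 UMIs), *Cd209d* (344 CPM), *Ear2* (327 CPM), *Rarres2* (241 CPM) and *Irx1* (198 CPM), each with 0 UMIs in the former. These leading genes were picked as the extremes of a ranking in the same cells of 1 library. Such a ranking favours genes with 0 UMIs in the other class, so they are a description and support nothing further. The 16 listed monocyte and inflammatory genes summed to 30647 CPM in the former class, 8357 CPM in the latter and 17850 CPM in the 137 cells with neither pair. The 16 other resident genes summed to 6125, 17308 and 5771 CPM in the same order. *Csf3r*, *Cxcr2* and *Retnlg* of neutrophils had 1 UMI together in the former class. Of the granule genes, *S100a8* had 5 UMIs in 5 cells there and *S100a9* had 0. *S100a8* stood at 24.5 CPM in the former class, 17.2 CPM in the latter and 9.41 CPM in the cells with neither pair.

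The genes were set beside lists of related genes in macrophages, chosen with earlier results of these data known. A gene that passed the level of 50 CPM through 1 library alone had to be higher there, so the counts describe the genes that passed and support nothing further. Of the 17 other genes known to be induced by IL-4 or IL-13, 8 reached 50 CPM in one library or both, of which 4 were at least 2-fold higher in AD, 2 at least 2-fold lower and 2 within 2-fold (median log2 ratio 0.47), against 6.86% and 10.0% of all genes. *Tgm2* and *Ccl17* passed through AD alone. *Tgm2* (transglutaminase 2) went from 12.1 to 91.3 CPM and *Ccl17*, a chemokine for CCR4-bearing T cells, from 10.3 to 73.2 CPM. *Il4ra*, the IL-4 receptor alpha chain, went from 106 to 222 CPM and *Clec7a*, the beta-glucan receptor Dectin-1, from 81.4 to 200 CPM. The lectin *Mgl2* went down from 464 to 135 CPM and the chemokine *Ccl24* from 147 to 59.8 CPM.

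Of the 16 other resident macrophage genes, 14 were tested, 9 were at least 2-fold lower in AD and 0 at least 2-fold higher (median log2 ratio -1.54), against 10.0% and 6.86% of all genes. *Cd209b* and *Cd209d* passed through Ctrl alone. *Cd209b* (140 and 16.8 CPM), *Cd209d* (285 and 38.3 CPM), *Igf1* (insulin-like growth factor 1; 538 and 85.3 CPM) and *Cbr2* (carbonyl reductase 2; 542 and 101 CPM) had the lowest ratios. *Lyve1*, the hyaluronan receptor, was within 2-fold at 211 and 153 CPM, and *Pf4* at 1953 and 1292 CPM. Of the 16 monocyte and inflammatory genes, 12 were tested, 7 were at least 2-fold higher and 3 at least 2-fold lower (median log2 ratio 1.43), against 6.86% and 10.0% of all genes. *Spp1* and *Vegfa* passed through AD alone, and *Vcan* and *Plac8* through Ctrl alone. The higher ones included *Spp1* (6.71 and 138 CPM), *Thbs1* (thrombospondin 1; 74.7 and 858 CPM), *Ptgs2* (233 and 2343 CPM) and *Il1b* (621 and 3514 CPM). The lower ones were *Vcan*, *Plac8* and *Ccr2*, 3 genes known from monocytes, at 230 and 45.7, 119 and 25.5, and 148 and 53.7 CPM.

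Around *Arg1*, 3 of 13 genes of arginine and polyamine metabolism were tested. *Odc1*, the ornithine decarboxylase that uses the product of arginase, was the 1 past 2-fold, at 126 and 443 CPM (log2 ratio 1.81, from 1.61 to 2.02). Of all genes tested, 6.86% were at least 2-fold higher in AD and 10.0% at least 2-fold lower. *Nos2*, the nitric oxide synthase that competes with arginase for arginine, had 0 UMIs in Ctrl macrophages and 1 UMI in AD macrophages. *Arg2* had 6 and 34 UMIs, below the level tested. Among near copies of the genes, *Cd209a* (109 and 4.03 CPM), *Cd209b* and *Cd209d* were the 3 of 11 tested. All 3, which passed through Ctrl alone, were at least 2-fold lower in AD, against 10.0% of all genes tested. *Cd209b* and *Cd209d* were already counted among the resident genes above.

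**Figure D5:**
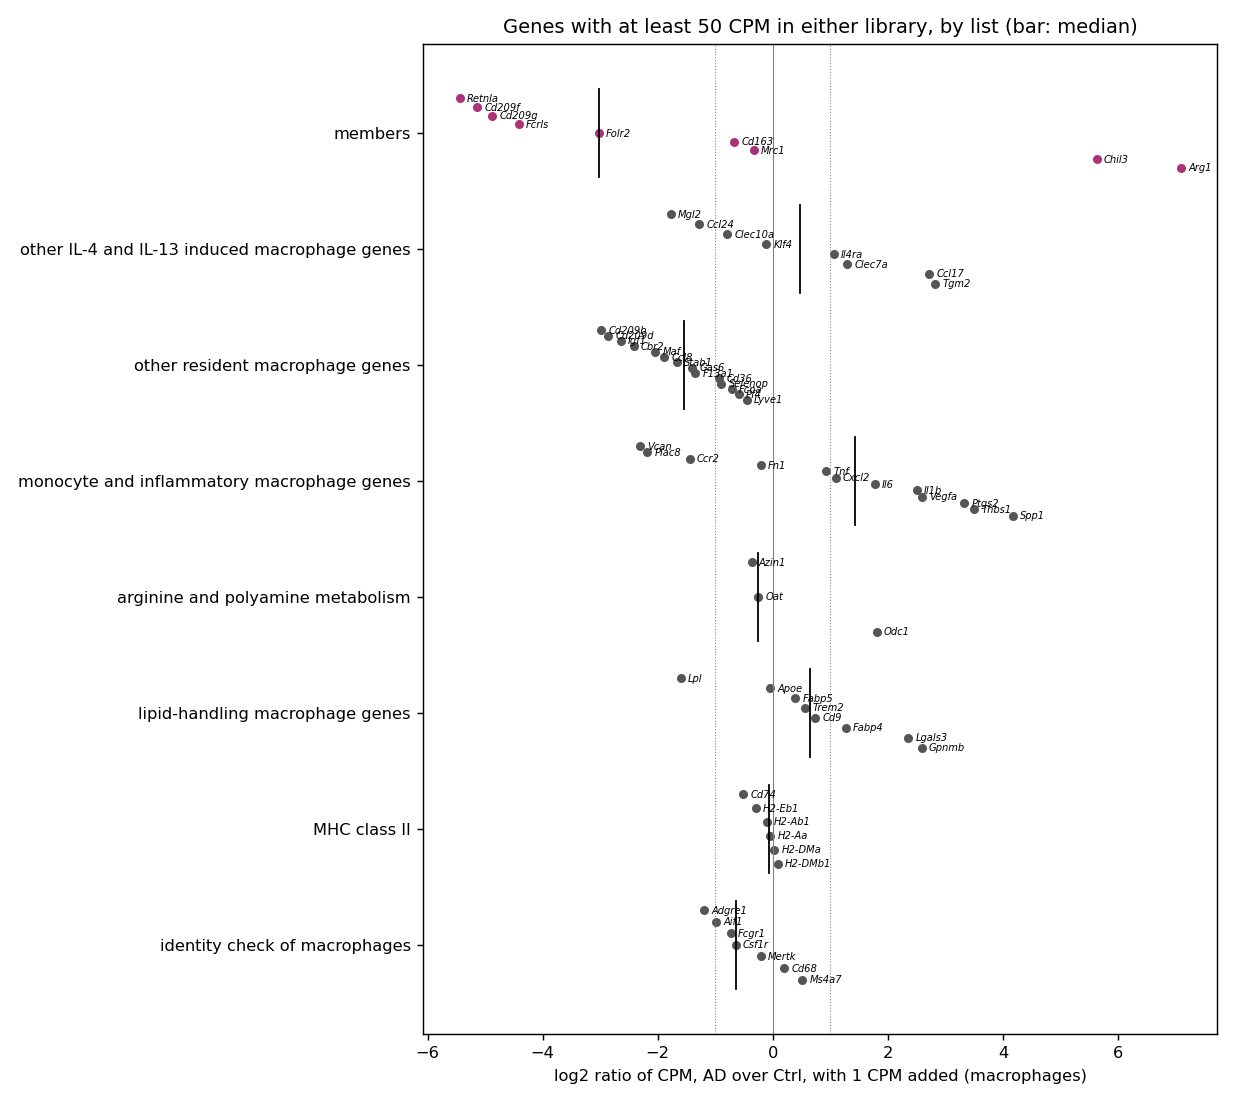
Log2 ratio of CPM in AD over Ctrl macrophages with 1 CPM added (x) for genes that reached 50 CPM in one library or both, by list (y), with 1 point per gene, a bar at the median of the list and dotted lines at 2-fold. The 9 genes of interest (top row) and the other IL-4 and IL-13 genes lie on both sides of 0, and the other resident genes lie below it.

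Across 24 points (12 gates with at least 50 cells in each library) the genes with the profile most like a given gene were named by Pearson's r of log2(CPM + 1) among 7806 genes. These points share libraries and depth, and many lie at or near 0, so r is a description. *Cd209f* was most like *Folr2* (r = 0.92) and *Cd209g* (r = 0.92), *Folr2* was most like *C1qc* (r = 0.95), *Mrc1* was most like *Lst1* (r = 0.94), and *Cd163* was most like *Nxpe5* (r = 0.96). *Chil3* was most like *Mmp8*, a neutrophil collagenase (r = 0.91), although the neutrophil gate, with 4 Ctrl and 42 AD cells, was not among the points. *Arg1* was most like *Il1a* (r = 0.81) and *Chil3* (r = 0.81), *Retnla* most like *Oasl1* (r = 0.86), and *Fcrls* most like *Cd209b* (r = 0.93).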

How the data were processed

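Single-cell suspensions of dorsal skin were prepared by enzymatic digestion and sequenced as 10x Genomics Chromium 3′ v3.1 libraries, 1 for Ctrl and 1 for AD. The deposited values are raw counts of UMIs per gene and cell, made by the authors with Cell Ranger and without normalization. The matrix headers name Cell Ranger 5.0.0, the submitters' processing notes 3.1.0 with mm10 and Seurat 5.0, and the methods 6.0.0 with Seurat 4.3.0; which one made the files was not settled. The deposited matrices held 125184653 UMIs in Ctrl and 76106062 UMIs in AD, and the kept cells held 105195951 and 61645227.

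Barcodes were kept if they had between 200 and 6000 detected genes and no more than 10% of UMIs from mitochondrial genes, the limits of the methods. Macrophages were cells with at least 3 UMIs of C1qa, C1qb and C1qc, and the remaining cells were gated by marker sums of at least 3 UMIs, without clustering, so that names of cell types may differ from those of the study. Scrublet (scanpy 1.11.5, expected rate 0.08, seed 0) called 420 doublets in Ctrl (3.68%) and 79 in AD (0.966%), 24 and 1 of them macrophages, and these were kept in the main values.

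Levels are CPM, summed UMIs over summed depth. Printed ratios are plain log2 ratios of CPM, and counts past 2-fold and values of lists used 1 CPM added to both levels. With 1 library per group no test was run. Expected cells with both pairs are the product of the shares. Cells were thinned to 1000 UMIs in 1 random draw without replacement. A count of 0 was given with the limit that 3 counts allow. UMIs are counted molecules, yet intervals and limits cover counting error only and no variation between mice. Intervals of levels and ratios also leave out the uneven spread of UMIs over cells. Named genes were the 9 genes, genes of the lists and near copies, the 3 genes of most similar profile across gates, and the 5 leading genes on each side between AD macrophage classes. The genes and lists were chosen with earlier results of these data known. Of 33904 identifiers, 32475 were in GENCODE M21 (GRCm38), the source of coordinates, and 1429 were not. The alternatives were other gates, all barcodes, doublets left out, thinning, another added CPM and the mean of each cell's own CPM. Ratio and co-detection code was checked on simulated data. Python 3.11.15, numpy 2.4.6, scipy 1.17.1, pandas 2.3.3, edlib 1.3.9.post1 and matplotlib 3.10.9 were used.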

Additional observations from a re-analysis of the deposited data

Results flagged for a closer look

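*Arg1* stood out because its difference between the libraries had opposite signs in macrophages and in 2 of the other groups of cells. In macrophages AD stood over Ctrl by a log2 ratio of 8.79, from 1 UMI in Ctrl and 294 in AD. In cells outside the macrophage gate that passed several gates, it was -3.39 (from -6.46 to -1.49), from 76 UMIs in 21 of 1052 Ctrl cells and 2 UMIs in 2 of 317 AD cells. In cells that passed no gate it was -1.75 (from -3.41 to -0.31), from 15 UMIs in 8 of 1192 Ctrl cells and 6 UMIs in 5 of 1816 AD cells. Other myeloid cells had the sign of macrophages, with a log2 ratio of 4.96 (from 3.04 to 8.04), and the intervals included 0 in keratinocytes (0.085, from -1.06 to 1.09) and fibroblasts (-0.26, from -1.85 to 1.20). The difference between these ratios was not tested, since each group has 1 library.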

How the results depend on the processing

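The counts of 2 genes higher and 5 lower past 2-fold, and the 0 AD macrophages with both pairs, were the same under every alternative run for them. In Ctrl, the observed over expected cells with both pairs were 0.388 (1 cell) with the C1q gate at 1 UMI, 0.300 (1 cell) with a gate on Cd68, Csf1r and Adgre1, and 0.344 (2 cells) with other myeloid cells added. In AD with other myeloid cells added, 55 of 295 cells had *Arg1* or *Chil3*, 23 had *Retnla* or *Cd209f* and 0 had both. The 4.29 expected there is over the 3 cells that a count of 0 allows, but the cells mix 2 gates, so nothing is read from it about macrophages. The log2 ratio of *Mrc1* turned from -0.33 to 0.084 with the C1q gate at 1 UMI; the cause was not tested. Of the remaining ratios of single genes under an alternative, 69 stayed within the counting interval of the reported value and 29 moved outside it with the same sign, and 58 shares moved while 104 stayed within theirs. The ratio of *Arg1*, with 1 CPM added, lay between 4.31 and 7.17, that of *Chil3* between 4.11 and 6.73, that of *Retnla* between -6.82 and -4.07 and that of *Cd163* between -1.0 and -0.27. Without a filter on low levels, 1103 of 16938 genes were at least 2-fold higher and 2960 at least 2-fold lower, as more genes of few UMIs were tested. Leaving out the cell with most UMIs of a gene, adding other myeloid cells and leaving out shared barcodes were chosen after seeing the data. No paired analysis was possible because each group has 1 library. The depth limits *Arg1* and *Chil3* in Ctrl (1 and 8 UMIs) and *Cd209f*, *Cd209g* and *Fcrls* in AD (17, 11 and 13 UMIs).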

Other observations

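Lipid-handling and antigen-presenting genes of the same macrophages had not been described above. Of 8 lipid-handling genes, all tested, 3 were at least 2-fold higher in AD and 1 at least 2-fold lower (median log2 ratio 0.65). Over all genes tested, 6.86% were at least 2-fold higher, 10.0% at least 2-fold lower and the median was -0.06, and *Gpnmb* and *Fabp4* passed the level of 50 CPM through AD alone. *Lgals3* (galectin 3) was at 678 CPM (Ctrl) and 3477 CPM (AD), *Gpnmb*, a lysosomal glycoprotein, at 25.0 and 155 CPM, and *Fabp4* (a fatty acid binding protein) at 21.5 and 53.1 CPM. *Lpl* (lipoprotein lipase) was at 407 and 134 CPM and *Apoe* at 9265 and 8952 CPM. Of 7 MHC class II genes, 6 were tested and all 6 were within 2-fold (median log2 ratio -0.07), with *H2-Aa* at 2648 and 2568 CPM and *Cd74* at 5857 and 4094 CPM. Summed MHC class II genes stood at 8604 CPM in the AD cells with *Arg1* or *Chil3*, 6963 CPM in those with *Retnla* or *Cd209f* and 11438 CPM in those with neither. The cells with neither also held all 211 UMIs of the Langerhans cell gene *Cd207* in AD macrophages, in 14 cells. The part of those cells in the sum was not tested.

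The identity genes were within 2-fold in 6 of 7 cases, and *Adgre1*, the F4/80 antigen, was at 325 and 142 CPM. *Cd163* had 13.7% of its AD UMIs in 1 macrophage (84 of 612), and its level there was 359 CPM without that cell.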
